A study of Mus musculus and blank sample with 768 samples.

Results

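Immediate early and heat shock genes were followed here as one list of 35 genes across single cells of mouse tumour, lymph node (LN) and blood. The list was set by name, with 29 early genes and 6 heat shock genes, and all 35 had a row in both deposited read count tables, of 51734 gene symbols in all. The cells were sorted one per well by CD45 (a blood cell surface protein), CD31 (an endothelial protein, gene Pecam1) and GFP. Tumour gave CD45+CD31-GFP- macrophages (81 cells kept of 96 wells), CD45-CD31+GFP- endothelial cells (EC, 84 of 96) and CD45-CD31+GFP+ cells, which the labels call Csf1r lineage endothelial cells (CLEC, 84 and 85 cells kept from 2 plates of 96 wells). LN gave CD45-CD31+ cells that were GFP- (EC, 74 kept), GFP+ (CLEC, 98 kept) or GFPlow (potential CLEC, 79 kept), and blood gave GFP+ cells labelled CLEC (7 kept of 27). The genotype behind GFP, the strain, the age, the tumour model and the number of animals are not given in the sources used here. Each gate was therefore treated as 1 sample, no test was run and no p-value is given. Cells of a gate came from plates KM1 to KM4 (tumour) or from pools A to D (LN and blood), and the agreement of plates or pools is given in place of replicate error.

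Immediate early genes are transcribed within minutes of a signal and without new protein synthesis, because the factors that switch them on are already in the cell. Their products are mostly transcription factors (the Fos, Jun, Egr and Nr4a families) together with proteins that end the signal, such as phosphatases of the Dusp family, the RNA-binding protein Zfp36 that speeds the decay of short-lived mRNAs, and the inhibitors Nfkbia and Socs3. Heat shock genes encode chaperones that keep proteins folded. Both kinds of gene are also known to respond when a tissue is dissociated into single cells. The part of cell handling in the levels below was not tested.

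Fos, Junb and Zfp36 were the 3 early genes whose levels moved together most closely across cells, so their upstream sequences are shown first. The near-identical Hspa1a and Hspa1b follow because their reads are hard to tell apart. Each sequence is the 250 bases before the start site in RefSeq (build GRCm38.p6), printed 5′ to 3′ along the gene. Fos lies at chr12:85473640-85473889 on the plus strand, and on the minus strand are Junb at chr8:84978749-84978998, Zfp36 at chr7:28379229-28379478, Hspa1a at chr17:34972157-34972406 and Hspa1b at chr17:34959239-34959488. Capitals mark TGACG or CGTCA (the core of the cyclic AMP response element), the CArG box bound by serum response factor, and TTCNNGAA or GAANNTTC (2 units of the element bound by heat shock factor).
Fos: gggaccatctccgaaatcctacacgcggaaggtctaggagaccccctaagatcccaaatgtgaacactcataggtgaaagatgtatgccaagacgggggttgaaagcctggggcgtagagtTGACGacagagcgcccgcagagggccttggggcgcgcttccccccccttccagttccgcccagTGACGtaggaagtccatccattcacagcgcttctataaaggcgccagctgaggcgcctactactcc
Junb: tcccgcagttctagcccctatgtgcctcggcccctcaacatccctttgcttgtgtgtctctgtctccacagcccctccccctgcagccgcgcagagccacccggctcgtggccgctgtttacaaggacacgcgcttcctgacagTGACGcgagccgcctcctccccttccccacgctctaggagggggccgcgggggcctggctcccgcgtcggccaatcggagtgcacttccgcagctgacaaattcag
Zfp36: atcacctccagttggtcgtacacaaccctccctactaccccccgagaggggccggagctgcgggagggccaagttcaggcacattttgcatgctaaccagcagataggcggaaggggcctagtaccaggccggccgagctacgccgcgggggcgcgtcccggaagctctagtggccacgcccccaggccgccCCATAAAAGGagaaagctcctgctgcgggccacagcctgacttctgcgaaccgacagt
Hspa1a: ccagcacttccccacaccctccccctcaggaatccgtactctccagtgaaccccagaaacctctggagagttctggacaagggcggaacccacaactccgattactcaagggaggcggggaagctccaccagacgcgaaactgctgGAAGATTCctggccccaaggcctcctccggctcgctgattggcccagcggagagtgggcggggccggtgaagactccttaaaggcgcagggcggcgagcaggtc
Hspa1b: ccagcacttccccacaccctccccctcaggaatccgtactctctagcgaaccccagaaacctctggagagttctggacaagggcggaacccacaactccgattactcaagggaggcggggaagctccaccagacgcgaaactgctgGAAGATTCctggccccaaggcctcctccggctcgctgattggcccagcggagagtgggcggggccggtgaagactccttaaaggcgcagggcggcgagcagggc

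The Hspa1a and Hspa1b stretches differed at 3 of 250 bases, and both held the 2-unit heat shock motif from -104 to -97 relative to the start. Of the 35 members, 29 had an entry in the promoter table, and both strands were searched. A member counted when any of its entries matched, while the share of promoters is over single entries, so the units differ. The 2-unit heat shock motif was found in 6 of the 29 (Fosl2, Jun, Egr2, Hspa1a, Hspa1b and Hspb1) and in 12.8% of 32851 promoters of the same length. Runs of 3 such units were found in 0 members and 0.466% of promoters. The core TGACG or CGTCA was found in 13 members and 17.8% of promoters, and the full element TGACGTCA, which contains that core, in 3 members (Dusp1, Btg2 and Maff) and 1.55% of promoters. The CArG box was in 2 members (Egr2 and Zfp36) and 1.47% of promoters, and the AP-1 motif TGANTCA in 1 member (Zfp36l1) and 6.75% of promoters. A match describes letters in a window and is not a binding site.

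Reads of some members are hard to assign to 1 gene. Of all 50-base stretches of the annotated transcript (GENCODE vM21), 60.3% for Hspa1a and 62.3% for Hspa1b also occurred in transcripts of other genes, nearly all of them in the other gene of the pair. Hspa8 (51.4%), Hsp90aa1 (58.5%) and Hspb1 (51.6%) shared a like part with other annotated genes. How the counting treated such reads is not given in the sources used here, so the levels of these 5 heat shock genes are uncertain. In every other member the share was at most 3.26%. The 2 Hspa1 genes are neighbours on the minus strand of chromosome 17, Hspa1b at 34956436 to 34959238 and Hspa1a at 34969190 to 34972156 (GRCm38). The 35 genes lie on 15 chromosomes, with the most, 5 members, on chromosome 12.

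The 592 cells kept had 58373 to 3123112 reads in genes, and 2 wells without a cell held 1 read in the 35 genes. By gate the median mitochondrial share of reads was 1.85% to 3.39%. CPM below means reads per 1000000 reads in genes, over the summed cells of a gate unless said to be per cell. The 7 macrophage markers summed to 24310 CPM in the macrophage gate and to 0.297 and 1.55 CPM in tumour EC and CLEC, and to 5.68, 67.6 and 11.7 CPM in LN GFP-, GFP+ and GFPlow cells, where 1 GFP+ cell reached 3408 CPM. The 6 endothelial markers were all detected in the 5 tumour and LN endothelial gates, at 1744 to 5764 CPM. The 7 blood cells went against their label, with endothelial markers at 135.7 CPM (Cdh5 and Kdr at 0), macrophage markers at 1402 CPM and T and B cell markers at 2397 CPM. T and B cell markers were at 0 to 0.0197 CPM in the 5 endothelial gates, fibroblast or pericyte markers at 0 to 17.5, platelet markers at 1.21 to 40.6 (292.9 in macrophages) and erythroid markers at 0.0105 to 0.643 CPM. Reads amplified by PCR without molecular identifiers are not independent molecules, so every interval below covers counting error only.

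Together the 35 genes took 2.44% of all reads in LN GFP- cells, 1.497% in LN GFP+ cells, 1.47% in LN GFPlow cells and 1.38% in tumour macrophages, against 0.904% in tumour EC and 0.736% in tumour CLEC. The LN GFP- share was 1.78%, 3.59% and 0.570% in pools A, B and C, and 1.58% with pool B left out. Cells of a gate differed widely. In LN GFP- cells the share ran from 0.0683% to 10.4% with a median of 1.14%, in macrophages from 0.272% to 2.94% with a median of 1.34%, and in tumour CLEC from 0.122% to 2.98% with a median of 0.654%. The 29 early genes alone took 1.94% of reads in LN GFP- cells and 0.447% in tumour CLEC, and the 6 heat shock genes 0.506% and 0.289%. In 581 cells thinned to 100000 reads, the median number of early genes with a read was 17 of 29 in macrophages, 14 in LN GFP- cells, 13 in tumour EC, 11 in tumour CLEC and in LN GFPlow cells, and 10 in LN GFP+ cells. Macrophages thus held reads of the most early genes per cell, and the highest median share over whole gates, while the larger summed share of LN GFP- cells came from pools A and B. Within pool B the median share was above that of macrophages, at 1.95% in LN GFP-, 1.71% in GFP+ and 1.48% in GFPlow cells.

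**Figure D1:**
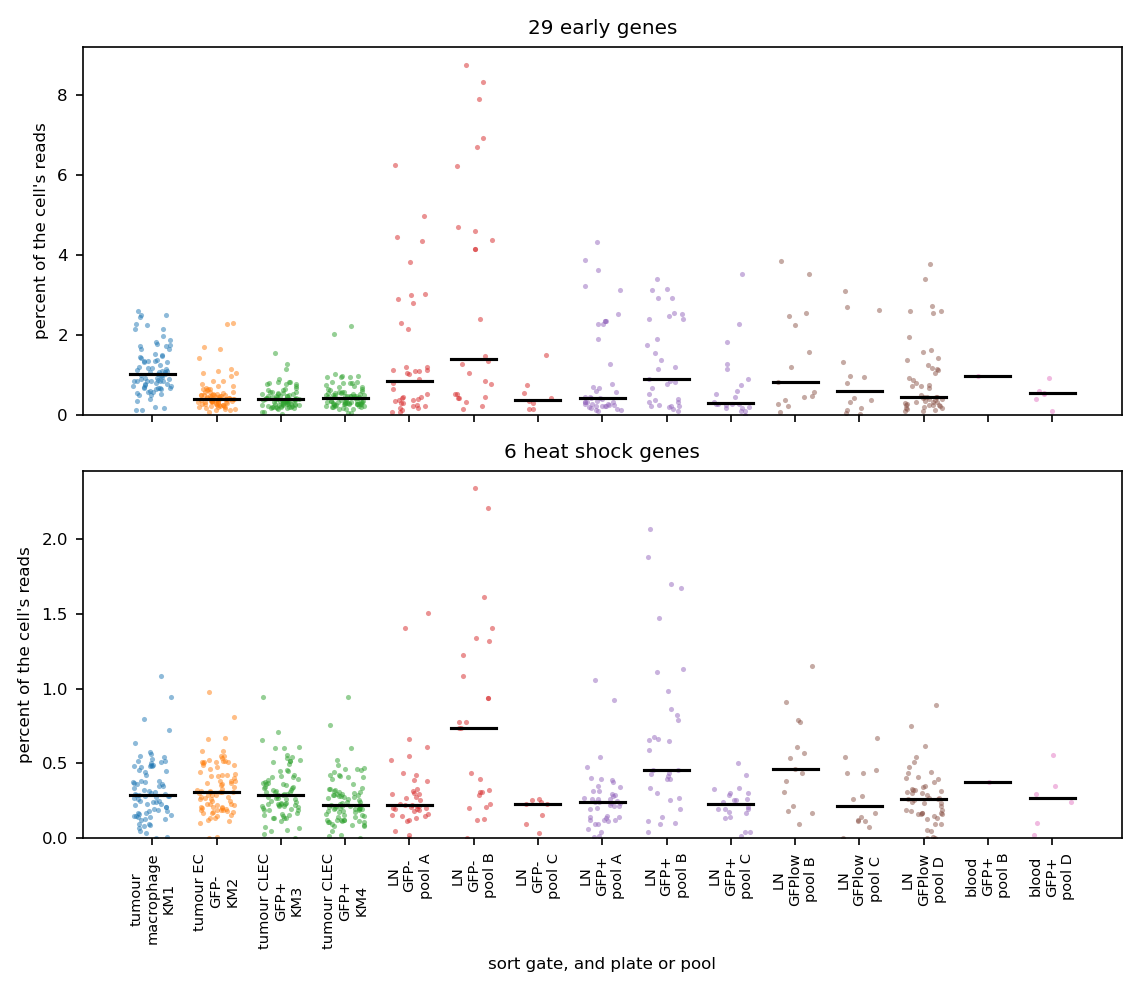
Percent of each cell's reads that fell in the 29 early genes and in the 6 heat shock genes, by sort gate and plate or pool. Points are cells and black lines are medians; single cells of LN GFP- pool B reach 8.76% in early genes, while tumour endothelial cells reach at most 2.30%.

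Per kilobase of exon, the scale on which genes can be compared, Fos led the list in macrophages (813 reads per kilobase per 1000000 reads, RPKM) and in all 3 LN gates (1893 RPKM in GFP-, 1061 in GFP+ and 1028 in GFPlow, level there with Nfkbia at 1028). In tumour EC and CLEC the first was Hspa8, the constitutive chaperone Hsc70, at 649 and 504 RPKM, followed by Nfkbia, the inhibitor that holds NF-kB in the cytoplasm, at 416 and 397 RPKM. Egr3, an early zinc finger factor, had 0 reads in tumour EC, tumour CLEC and LN GFP+ cells, which allows shares of up to 3.57%, 1.78% and 3.06% of cells with a read.

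The members differed in how far their summed levels ranged over the 6 tumour and LN gates. Hspa8 ranged least in proportion, from 1989.6 CPM in tumour macrophages to 2886 in LN GFPlow cells. Zfp36l1, which like Zfp36 speeds mRNA decay, ranged from 469.9 CPM in LN GFP- cells to 753 in tumour CLEC. The inhibitor Nfkbia ranged from 488 CPM in tumour macrophages to 1655 in LN GFPlow cells, and Socs3, the inhibitor of cytokine receptor signalling, from 100.5 CPM in tumour CLEC to 563 in LN GFPlow cells. Dusp1, a phosphatase that ends MAP kinase signalling, ranged from 445 CPM in tumour CLEC to 1426 in tumour macrophages. Among AP-1 partners, Fosl2 ranged from 63.95 CPM in tumour macrophages to 157.8 in LN GFPlow cells, Jund from 15.2 CPM in tumour EC to 40.5 in tumour macrophages and the small Maf protein Maff from 1.97 CPM in LN GFP+ cells to 9.20 in tumour EC. Of the early genes Ier2 and Ier5, whose products act in the nucleus, Ier2 ranged from 220.6 CPM in LN GFP+ cells to 719.8 in LN GFP- cells and Ier5 from 38.3 CPM in tumour EC to 100 in LN GFPlow cells. Gadd45g, a stress-induced growth arrest gene, ranged from 43.8 CPM in LN GFPlow cells to 103.1 in LN GFP- cells.

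**Figure D2:**
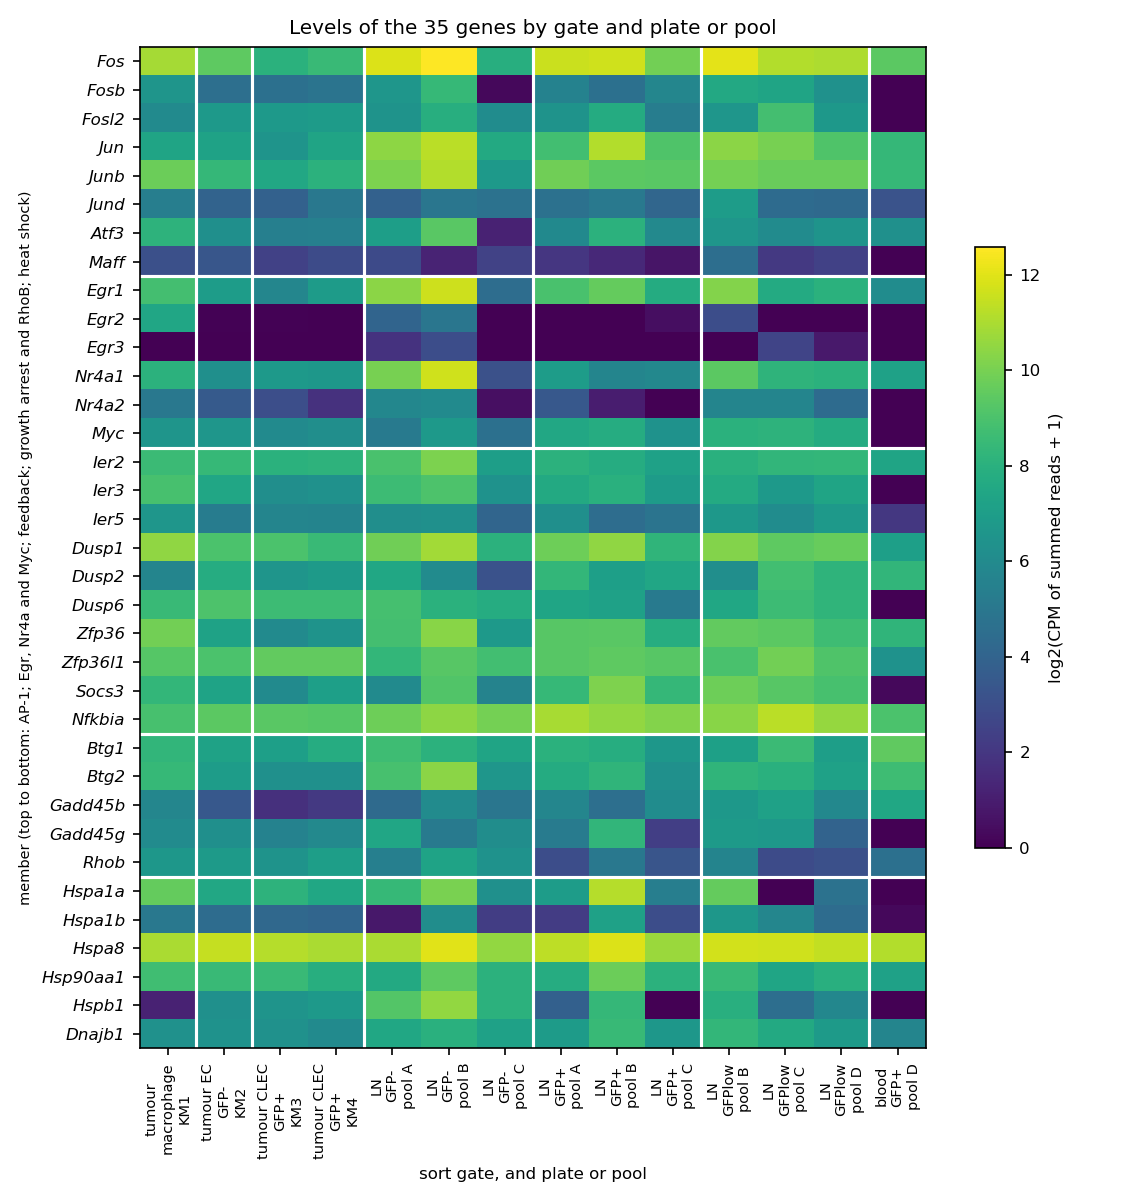
Level of each of the 35 genes, as log2 of CPM of summed reads plus 1, in every gate and plate or pool with at least 5 kept cells, with rows grouped by role. Hspa8 is bright in every column, among the tumour columns Egr2 stands out in macrophages alone, and LN GFP- pool C is darker than pools A and B for Fos, Egr1 and Nr4a1.

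Tumour CLEC were compared with tumour EC, the GFP+ and GFP- endothelial cells of the same tissue. A gene counted as measured where 1 of the gates had 1 CPM or more and reads in 5% or more of its cells, and as called when the gates were at least 2-fold apart by the log2 ratio of CPM plus 1. Of 32 measured members, 0 were called higher and 4 lower in CLEC, beside 6.95% and 8.25% of 10971 measured genes. The median ratio was -0.32 for the members and -0.12 for all measured genes. Between the CLEC plates KM4 and KM3, which hold cells of the same gate, 3 of 32 measured members were called higher and 1 lower (10.8% and 7.9% of genes). By the stricter rule of 2-fold, 20 CPM and 1 direction on every plate or pool pair, 2.79% and 3.76% of genes passed between the gates and 4.66% and 4.12% between the plates, and 3 members passed in each case, Fos, Ier3 and Dusp2 (lower in CLEC) and Socs3, Jund and Egr1 (higher on KM4).

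The 4 called members were an AP-1 subunit, 2 feedback genes and a stress gene. Ier3, an early gene with roles in cell survival, ran over cells from 0 to 2385 CPM with a median of 0.943 in EC, and from 0 to 1309 CPM with a median of 0 in CLEC. Its summed levels were 171.2 and 77.2 CPM (2.20-fold lower in CLEC, -1.14, plates -1.20 to -1.08). The cell ranges overlapped, with more EC than CLEC holding reads (51.2% and 32.5%, or 50% and 29.9% after thinning).

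Dusp2, a nuclear phosphatase that inactivates MAP kinases, ran from 0 to 1003 CPM with a median of 206.6 in EC, and from 0 to 978 CPM with a median of 0 in CLEC. Its summed levels were 220.6 and 104.6 CPM (2.10-fold, -1.07). It was read in 76.2% of EC (95% exact interval 65.7% to 84.8%) and 39.1% of CLEC (31.7% to 46.8%), or 75.6% and 35.3% after thinning. The highest cells of both gates were alike, and the gates differed in how many cells held reads.

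Fos ran from 0 to 6132 CPM with a median of 74.1 in EC, and from 0 to 4616 CPM with a median of 0 in CLEC. Its summed levels were 698 and 313.9 CPM (-1.15). One EC held 30.4% of the EC reads of Fos, and without the top cell of each gate the ratio was -0.75, under 2-fold. Gadd45b, a stress-induced growth arrest gene, was at 10.1 and 2.85 CPM (-1.53), with reads in 9.52% of EC and 2.37% of CLEC, so few cells carry this difference. Without plate KM3 the ratios of Fos and Dusp2 were -0.95 and -0.93, and without plate KM4 the number of called members was 7, all lower (8% of genes were higher and 13.1% lower). The ratios of the 6 heat shock genes ran from -0.36 (Hspa8) to 0.36 (Hspb1).

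Both tumour endothelial gates were also set beside tumour macrophages. The 2 comparisons share the macrophage plate, so their values are given side by side. Of 34 measured members, 15 were called lower and 1 higher in CLEC (19.7% and 24.2% of genes), and the median ratio was -0.84 against 0.08 for all measured genes. In EC 17 of 34 were lower and 2 higher (19.3% and 27.5% of genes), with a median of -1.01 against 0.21. Gate and plate cannot be told apart here, since each tumour plate held 1 gate.

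The widest gap was in Egr2, a zinc finger factor with known roles in macrophages. It ran from 0 to 1312 CPM over macrophages, and up to 50.99 CPM in EC and 7.02 CPM in CLEC, each with 4 reads in all. It was read in 44.4% of macrophages (33.4% to 55.9%), 2.38% of EC (0.290% to 8.34%) and 1.78% of CLEC (0.368% to 5.10%). Zfp36 behaved less sharply. It ran from 0 to 3617 CPM over macrophages with a median of 827, to 1305 CPM with a median of 51.5 in EC, and to 1351 CPM with a median of 0 in CLEC, and its summed levels were 939.5, 150.7 and 75.8 CPM (ratios to macrophages -2.63 in EC and -3.61 in CLEC). Fos had cell medians of 1893, 74.1 and 0 CPM (ratios -1.45 and -2.60), with reads in 95.1%, 53.6% and 42.01% of cells. Nearly all macrophages held reads of Fos and Zfp36, and the cell ranges of the 3 gates overlapped.

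By role, 4 of 8 measured AP-1 genes were lower in CLEC than in macrophages and 5 of 8 in EC. Of the Egr, Nr4a and Myc genes 4 of 5 measured were lower in CLEC and 4 in EC, and of 10 feedback genes 4 and 5. Atf3, an early stress factor, was at 276.9 CPM in macrophages, 76.1 in EC and 42.9 in CLEC. Junb was at 854, 330.4 and 226.2 CPM, and Egr1, the best known early zinc finger factor, at 457, 121.8 and 86.9 CPM. All 3 were in the order macrophages, EC, CLEC from high to low. Hspb1, the small heat shock protein Hsp27, was lowest in macrophages. It was read in 1 of 81 macrophages (1.23%, 0.0313% to 6.69%), 46.4% of EC (35.5% to 57.6%) and 31.95% of CLEC (25.001% to 39.6%), at 1.32, 78.4 and 101.03 CPM. Further members past the stricter rule were higher in macrophages. Dusp1 was at 1426 CPM in macrophages, 519 in EC and 444.9 in CLEC, Ier3 at 485, 171.2 and 77.2 CPM, and Btg2, an antiproliferative early gene, at 343.1, 123.9 and 77.8 CPM. Of the remaining AP-1 and Nr4a genes, the AP-1 subunit Fosb was at 93.3, 23.1 and 25.9 CPM, and the orphan nuclear receptors Nr4a1 and Nr4a2 at 274.02, 77.1 and 104.7 CPM and at 31.97, 10.9 and 4.65 CPM. Gadd45b was at 53.7, 10.1 and 2.85 CPM, and Socs3 at 318.05, 156.3 and 100.5 CPM, with its EC ratio of -1.02 at -0.95 under the stricter cell filter. Jund (-1.35) and Ier5 (-1.33) passed in EC. Dusp2 was at 52.8 CPM in macrophages and at 220.6 in EC (2.04), and CLEC lay between them.

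In the lymph node, GFP+ cells were set beside GFP- cells of pools A, B and C. Of 35 measured members, 13 were called lower and 1 higher in GFP+ cells (19.2% and 20.1% of 11140 genes), and the median ratio was -0.65 against 0.04 for all measured genes. The pools did not share this direction. The member median was -0.63 in pool A, -0.81 in pool B and 0.32 in pool C, where 22 GFP+ cells met 8 GFP- cells. At 20 CPM or more, 5 called members were lower in all 3 pools and 1 was higher (6.63% and 9.41% of genes). Lymphatic markers summed to 1240.0 CPM in GFP+ and 835 in GFP- cells, and markers of blood vessel endothelium to 2258 and 7386 CPM. Nearly all of the first sum was Plvap (2248 against 4412 CPM), with Ly6c1 and Sox17 at 0, Flt1 at 8.90 against 625 CPM and Cd34 at 0.641 against 1098 CPM. Their part in the results was not tested beyond the split by Prox1 given with them.

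**Figure D3:**
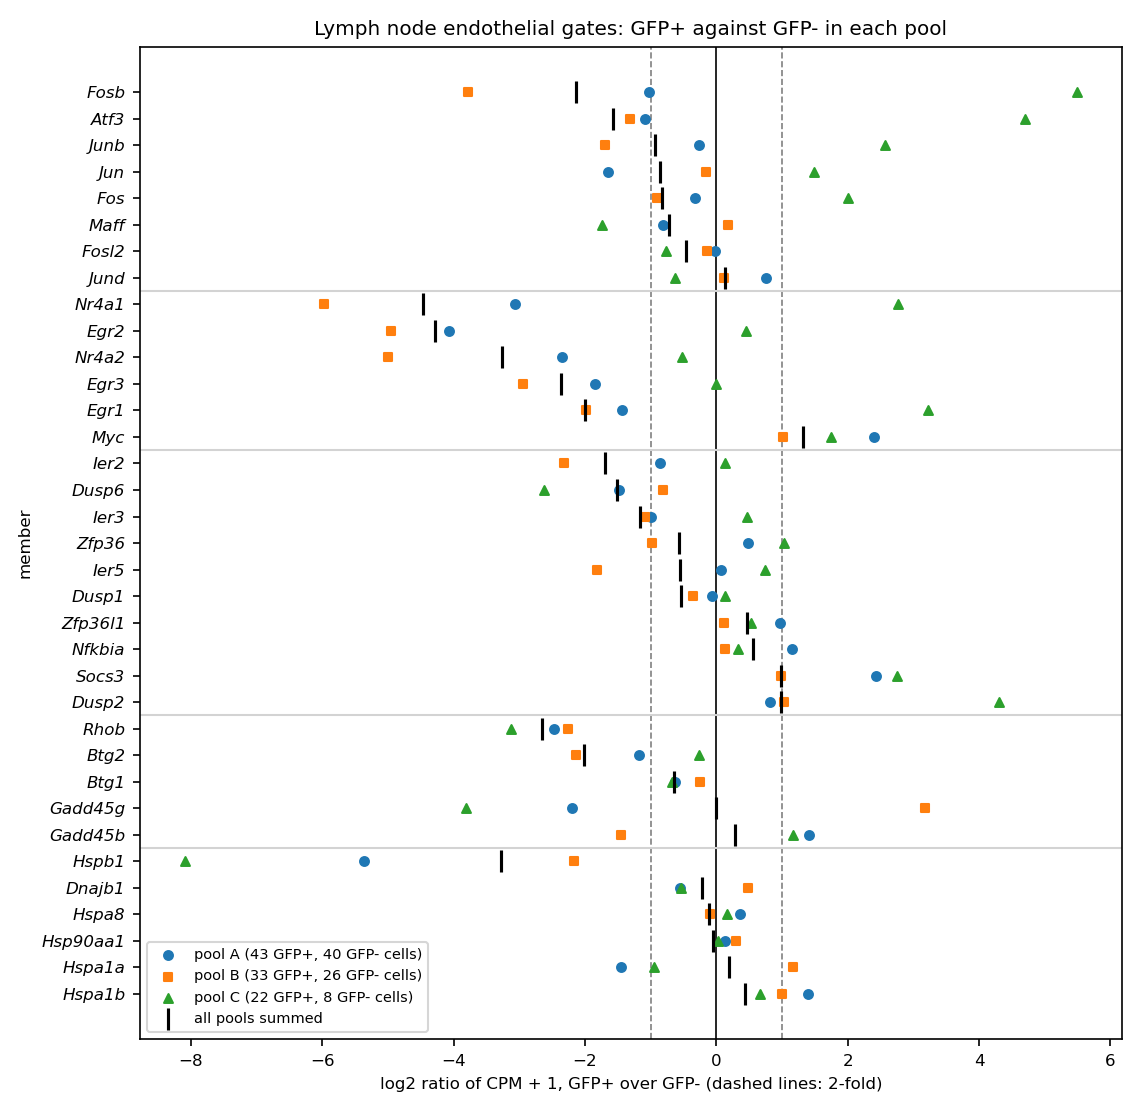
Log2 ratio of CPM plus 1, LN GFP+ over LN GFP-, for each member in pools A, B and C (coloured points) and summed over them (black), with dashed lines at 2-fold. Hspb1, Rhob, Dusp6, Btg2 and Nr4a2 lie left of 0 and Myc right of 0 in all 3 pools, and Egr1 and Nr4a1 change side in pool C.

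Hspb1 had the largest of these 6 differences. It ran from 0 to 10791 CPM with a median of 229.4 over GFP- cells, and from 0 to 5688 CPM with a median of 0 over GFP+ cells. The summed levels were 936 and 95.2 CPM (9.74-fold lower in GFP+, -3.28, pools -8.10 to -2.16), and 1 cell held 65.8% of the GFP+ reads. Cells with a read made up 77.03% of GFP- (65.8% to 86.01%) and 13.3% of GFP+ cells (7.26% to 21.6%), or 77.5% and 10.5% after thinning. Most GFP+ cells were at 0 and most GFP- cells were not, though the ranges overlapped.

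Rhob, a small GTPase of endosomes and the cytoskeleton, ran from 0 to 1212 CPM in GFP- cells and from 0 to 499 CPM in GFP+ cells, with both medians at 0. Its summed levels were 94.8 and 14.2 CPM (-2.66, pools -3.12 to -2.26), with reads in 43.2% and 13.3% of cells (39.4% and 10.5% after thinning). Btg2 was at 807 and 199.4 CPM (-2.01). Dusp6, the phosphatase specific for ERK, was at 353.6 and 123.8 CPM (-1.51). Nr4a2 was at 54.1 and 4.75 CPM (-3.26), but at a ratio of 0.93 with a stricter cell filter, so its direction rests on the filter. Myc, the growth-promoting transcription factor, was the 1 called higher in GFP+ cells, at 166.9 against 66.1 CPM (1.32, pools 1.01 to 2.404). It was read in 48.98% of GFP+ and 28.4% of GFP- cells (48.4% and 25.4% after thinning), and without pool A the ratio was 0.68.

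The early factors with the highest LN levels did not keep 1 direction. Nr4a1 was at 1030.3, 3284 and 7.76 CPM in GFP- cells of pools A, B and C, and at 122.5, 51.4 and 58.5 CPM in GFP+ cells. Egr1 was at 1349, 3098 and 21.6 CPM in GFP- cells and at 496, 782 and 209.6 CPM in GFP+ cells. Both were lower in GFP+ cells in pools A and B and higher in pool C. Fos differed by less than 2-fold in the sum, at 4453 CPM in GFP- cells (0 to 19355 over cells, median 901) and 2496 CPM in GFP+ cells (0 to 18062, median 157.4). Its pools gave 3808, 6114 and 236.97 CPM in GFP- and 3028, 3257 and 953 CPM in GFP+ cells, so pool C was again the pool with the opposite order. Socs3 was higher in GFP+ cells in all 3 pools and just short of 2-fold, at 561 against 284.2 CPM (0.98).

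The LN gates were further split by whether a cell held a read of Prox1, the transcription factor that defines lymphatic endothelium. A cell without such a read may still express it. Of GFP+ cells 78 held Prox1 reads and 20 did not, and of GFP- cells 27 did and 47 did not. Among GFP+ cells the 35 genes took 1.70% of reads with Prox1 and 0.685% without, and among GFP- cells 1.98% and 2.86%, the opposite order. The pools were not evenly split (32, 29 and 17 GFP+ cells with Prox1 in pools A, B and C and 11, 4 and 5 without, and 14, 12 and 1 GFP- cells with it and 26, 14 and 7 without). Within pools A, B and C the GFP+ shares were 1.76%, 2.34% and 0.882% with Prox1 and 0.507%, 1.56% and 0.647% without. The GFP- shares were 1.62% and 2.33% with Prox1 and 1.93% and 5.26% without in pools A and B, so the order of each gate held there, and pool C had 1 GFP- cell with Prox1. In GFP+ cells Zfp36 was at 642 CPM with Prox1 and 61.4 without, and Egr1 at 616 and 0.576 CPM. In GFP- cells Hspb1 was at 186.3 CPM with Prox1 and 1608 without, Hspa1a, the inducible Hsp70, at 131.3 and 1055 CPM, and Dusp2, in the other direction, at 238.4 and 3.22 CPM. Among Prox1 cells summed over pools, the ratio of GFP+ over GFP- was -0.64 for Hspb1, -1.35 for Rhob and -1.62 for Dusp6. It was -0.19 for Nr4a2, -0.51 for Btg2 and 0.75 for Myc. Hspb1 changed direction between pools by summed reads. It was at 17.66 CPM in GFP+ and 197.8 in GFP- Prox1 cells of pool A, and at 358.7 and 179.7 CPM in pool B. Most GFP+ reads of Hspb1 came from a single cell, as given above, so the GFP+ level in pool B rests largely on that cell. By cells with a read, Hspb1 was lower in GFP+ Prox1 cells, at 16.67% against 62.96% over the pools. Nr4a2 and Btg2 were slightly higher in GFP+ Prox1 cells of pool A and lower in those of pool B. Myc was higher in GFP+ cells in both. Of those 6 genes, Rhob and Dusp6 were still 2-fold apart in the sums. In pool A, Prox1 cells had Rhob at 9.022 CPM in GFP+ and 23.63 in GFP- cells. Dusp6 was at 209.6 and 671.3 CPM there. In pool B both genes were again lower in GFP+ cells, but by less than 2-fold, with Rhob at 34.47 and 52.68 CPM. The sums also hold 17 GFP+ cells of pool C, which met 1 GFP- cell. Dusp2, at 0.98 over all cells, was at 0.17 among Prox1 cells summed over pools, and Socs3 at 0.60. Within pools, Prox1 cells had Socs3 at 398.5 CPM in GFP+ and 57.24 in GFP- cells of pool A. In pool B it was at 1233 and 768.6 CPM.

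LN GFPlow cells were compared with the other LN gates in pools B and C, which hold all 3. Against GFP- cells, 6 of 35 measured members were called higher and 12 lower (25.3% and 30.5% of 10613 genes), with a median of -0.58 against -0.05 for all measured genes. The median was -0.58 for pool B and 1.41 for pool C. With pool B left out it was 1.72, with 24 members called higher and 3 lower (47.7% and 29% of genes, median of all measured genes 0.77, 14 GFPlow and 8 GFP- cells), so the direction of the list rests on that pool. By the stricter rule 4 members were lower and 4 higher (12.4% and 12.6% of genes). Hspb1 (125.7 against 1244 CPM, -3.30), Rhob (26.7 against 141.7 CPM, -2.37) and Myc (273.9 against 94.5 CPM, 1.53) kept their call without either pool. The other 5 did not. Without pool C, Dusp2 (called at 2.25) was at 0.14, Gadd45b (1.08) at 0.63, Hspa1a (-1.27) at -0.44 and Hsp90aa1, the inducible Hsp90 (-1.29), at -0.98. Without pool B, Gadd45g (1.43) was at 0.59 and Hsp90aa1 at -0.68. Gadd45b and Hsp90aa1 each kept their call in 6 of 9 alternative settings.

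Against LN GFP+ cells, 10 of 34 measured members were called higher and 2 lower in GFPlow cells (20.5% and 25.4% of 10470 genes), with a median of 0.54 against 0.00. The median was -0.06 in pool B and 1.22 in pool C. By the stricter rule 7 were higher and 2 lower (9.39% and 12.7% of genes). Nr4a1 (468 against 55.1 CPM, 3.06), Fosb (174.7 against 39.2 CPM, 2.13), Ier5 (85.2 against 24.6 CPM, 1.76) and Gadd45b (126.8 against 45.9 CPM, 1.45) were higher by more than 2-fold without either pool, though Ier5 was at 0.62 by the mean of per-cell CPM. Nr4a2 was at 51.7 against 0.507 CPM (5.13), read in 10.3% of 29 GFPlow and 1.82% of 55 GFP+ cells, so few cells carry it. The 2 called lower were chaperones, Hspa1a (360.9 against 1165 CPM, -1.69) and Hsp90aa1 (256.9 against 564 CPM, -1.13, -0.69 without pool B). Hsp90aa1 kept its call in only 5 of 9 alternative settings. Dusp6 (1.70) was at 0.25 without pool C, and Jund (1.44) at 0.25 without pool B.

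The endothelial gates of LN and tumour were set side by side as well. Tissue, plates or pools and the deposited table change together in these comparisons and cannot be told apart. LN GFP- cells had 20 of 35 measured members called higher and 1 lower than tumour EC (20.9% and 25.5% of 11454 genes), with a median of 1.28 against -0.14. LN GFP+ cells had 16 of 33 measured members called higher and 3 lower than tumour CLEC (23.4% and 23.8% of 11538 genes), with a median of 0.97 against -0.03. Pool C stood apart. Its medians were -0.91 for GFP- cells against tumour EC and -0.24 and -0.27 for GFP+ cells against the 2 CLEC plates, while pools A and B gave 0.88 and 1.76 for GFP- cells and 0.58 to 1.56 for GFP+ cells.

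By the stricter rule 14 members were higher in LN GFP+ cells than in tumour CLEC and 2 lower (12.4% and 14.2% of genes). Fos led the AP-1 genes among them. It ran from 0 to 18062 CPM with a median of 157.4 over LN GFP+ cells and from 0 to 4616 CPM with a median of 0 over tumour CLEC, at 2496 and 313.9 CPM summed (7.93-fold, 2.99, pairs of pool and plate 1.39 to 3.63). Jun was at 961 and 128.9 CPM (2.89), Zfp36 at 525 and 75.8 CPM (2.78), and Egr1 at 492 and 86.9 CPM (2.49). An order kept on all 6 pairs was part of the rule that picked these members, and the pairs share pools and plates. The cell ranges of the gates overlapped for each of these 4. Gadd45b had the largest ratio, at 49.3 and 2.85 CPM (3.71), with reads in 24.5% and 2.37% of cells. Nfkbia was at 1621 and 639 CPM (1.34), Socs3 at 561 and 100.5 CPM (2.47), and Junb at 784 and 226.2 CPM (1.79). Btg2 (1.35), Ier3 (1.29) and Myc (1.28) passed as well, with Btg2 at 0.02 on its lowest pair. The smallest, Dusp2 (1.11), was at 0.58 without pool A and 0.97 without plate KM3, and Atf3 (1.43) and Dnajb1, an Hsp40 co-chaperone (1.30), were at 0.48 and 0.63 without pool B.

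Rhob and Dusp6 were the 2 that were lower in LN GFP+ cells on all 6 pairs at 20 CPM or more. Rhob was at 14.2 against 109.05 CPM (-2.86), with reads in 13.3% against 66.9% of cells (10.5% and 62.9% after thinning). Dusp6 was at 123.8 against 389 CPM (-1.65). Between LN GFP- cells and tumour EC, 5 members passed the stricter rule as higher and 0 as lower (6.77% and 14.6% of genes). They were Hspb1 (936 against 78.4 CPM, 3.56), Jun (1740.5 against 152.4 CPM, 3.51), Gadd45b (1.90), Dnajb1 (1.31) and Btg1, an antiproliferative gene (1.08). Btg1 was at 0.71 without pool A, and Gadd45b at 0.997 without pool B.

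Pools of the same LN gate were also compared. Between pools B and A, 11 of 33 measured members were called higher and 5 lower in GFP+ cells (20.8% and 24.5% of genes), and 19 of 35 higher and 3 lower in GFP- cells (25.3% and 27.3% of genes). In both gates 5 of the 6 heat shock genes were called higher in pool B, with median ratios of 3.12 in GFP+ and 1.47 in GFP- cells. Hspa1a was at 123.3, 2345 and 40.8 CPM in pools A, B and C of GFP+ cells and at 337.7, 1048 and 79.6 CPM in GFP- cells. In GFPlow cells it was at 774, 0 and 25.8 CPM in pools B, C and D. Hsp90aa1 was at 217.4, 873 and 270.5 CPM in GFP+ cells and at 197.98, 712 and 267.2 CPM in GFP- cells of pools A, B and C. Pool B was the highest for both genes in each LN gate.

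Hspa8 moved less, at 2548, 3828 and 1667 CPM in GFP+ and 1988, 4099.6 and 1484 CPM in GFP- cells of pools A, B and C. On the tumour plates Hspa1a was at 787 CPM in macrophages, 184.9 in EC and 227.5 in CLEC. It was read in 51.9% of macrophages, 26.2% of EC and 26.04% of CLEC (50.6%, 24.4% and 24.6% after thinning), with cells up to 6625, 2871 and 4047 CPM. The median mitochondrial share was 1.34% in GFP- and 1.58% in GFP+ cells of pool B, against 2.49% and 2.30% in pool A. The part of cell quality in the pool difference was not tested.

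Members were then correlated across cells within a gate and plate or pool, which gave 11 sets of 15 to 85 cells. Cells of a set share library preparation and differ in depth, so Spearman's rho is given as a description. Of 595 pairs of members, 541 had a median rho above 0 over the sets and 67 were above 0.3, and the median pair was at 0.12. Pairs of other genes were not counted in the same way, so an excess cannot be read from these counts. The highest were Fos with Zfp36 (0.68, sets 0.37 to 0.82), Fos with Junb (0.62, 0.24 to 0.79) and Junb with Zfp36 (0.59, 0.32 to 0.77), at 0.65, 0.60 and 0.57 after thinning. Fos with Dusp1 (0.55) and Fos with Egr1 (0.55) followed. Pairs within the AP-1 group had a median of 0.27, pairs of an AP-1 gene with a heat shock gene 0.08 and pairs within the heat shock group 0.13. The closest heat shock pair was Hspa1a with Hspa1b (0.33), whose transcripts share most of their sequence.

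**Figure D4:**
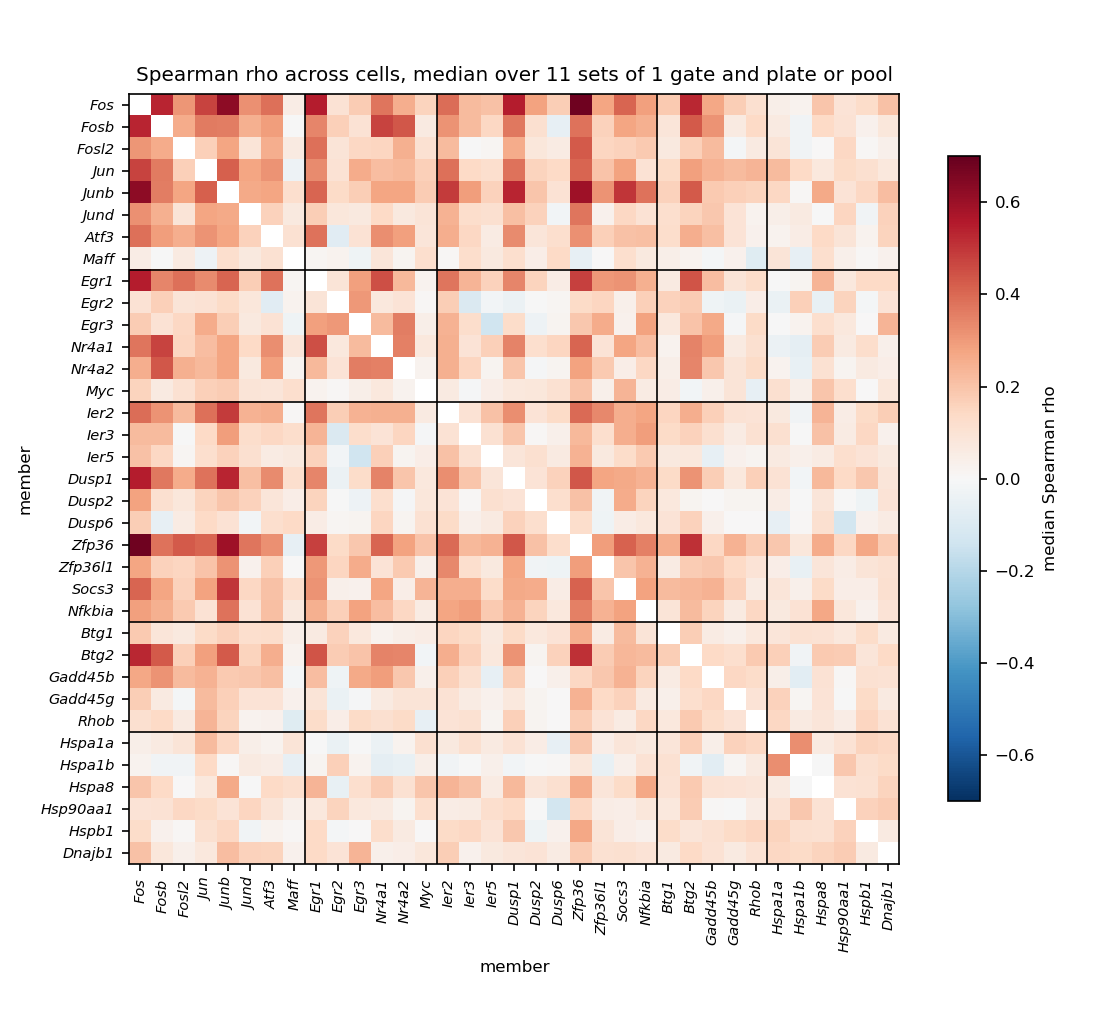
Median Spearman rho over 11 sets of cells for every pair of the 35 members, with black lines between the 5 roles. The darkest squares join Fos, Junb, Zfp36, Dusp1 and Egr1, and the block between early and heat shock genes is pale.

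The summed early genes and the summed heat shock genes of each cell were set against each other in the same sets. In macrophages rho was -0.16 over 81 cells. In tumour EC it was 0.14, and on the 2 CLEC plates 0.22 and 0.17. In LN GFP- cells it was 0.54 in pool A and 0.77 in pool B, in GFP+ cells 0.47, 0.74 and 0.12 in pools A, B and C, and in GFPlow cells 0.42 and 0.31 in pools B and D. Cells of LN pools A and B that were rich in early genes were thus often rich in heat shock genes, and tumour cells showed little such relation. The heat shock sum differed in make-up. Hspa8 was at 2793 CPM in tumour EC, where the sum was 0.3522% of reads, and at 2847 CPM in LN GFP- cells, where it was 0.5065%. The LN sets also mix cells with and without Prox1 reads. The part of either in the contrast was not tested. With the mitochondrial share, the early sum had rho below 0 in every set but macrophages (0.11), with -0.18 and -0.57 in pools A and B of GFP- cells, -0.47, -0.43 and -0.12 in pools A, B and C of GFP+ cells, and -0.18, -0.23 and -0.30 in tumour EC and on the CLEC plates KM3 and KM4. The part of this in the relation was not tested.

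**Figure D5:**
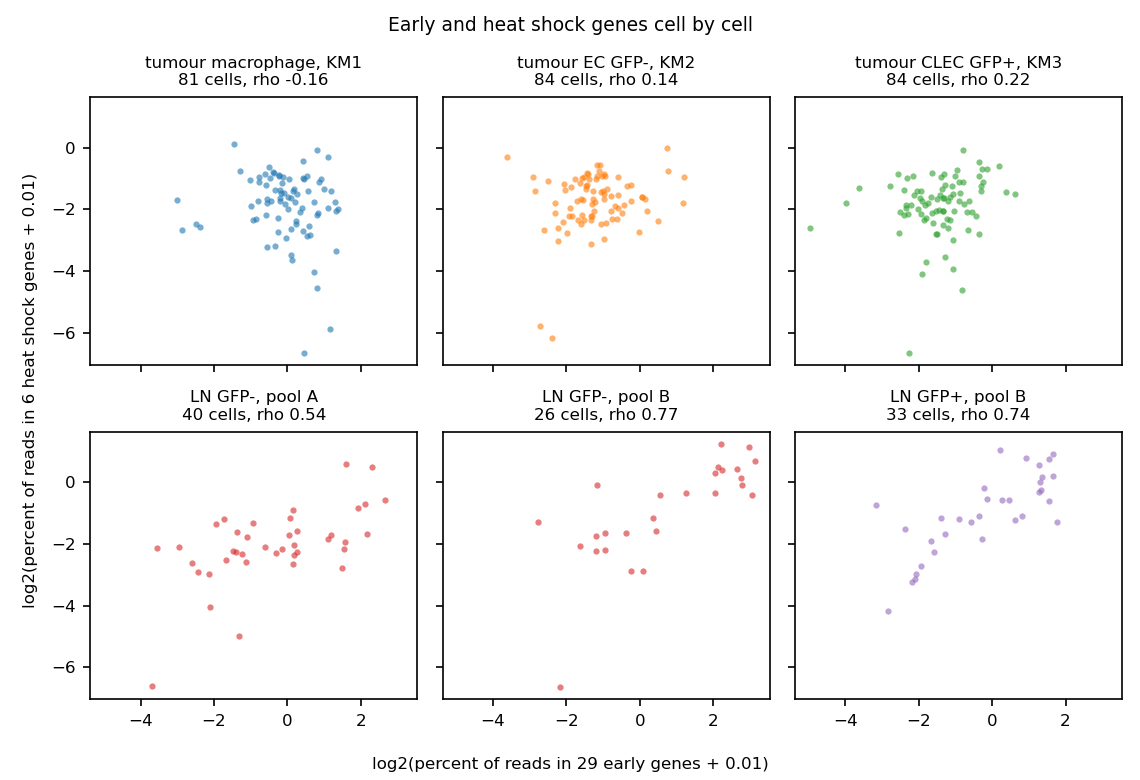
Percent of reads in the 29 early genes against percent in the 6 heat shock genes, one point per cell, for 6 of the sets, both axes as log2 of the percent plus 0.01. The tumour sets shown form loose clouds (rho -0.16, 0.14 and 0.22) and the LN sets shown slope upward (0.54, 0.77 and 0.74). The LN sets shown are those with the highest rho, and the LN sets left out ran from 0.12 to 0.47.

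Other genes of the same pathways were read from a list of 66 that holds further early genes, their regulators and chaperones. In tumour CLEC against EC, 1 of 29 measured early genes was called higher and 5 lower (6.95% and 8.25% of all measured genes). The higher was Dusp5, at 31.5 against 13.6 CPM. Among the lower were Nfkbie, at 20.8 against 48.1 CPM, and Cebpd, a stress-responsive factor, at 83.4 against 173.6 CPM. The chaperone Hsph1 was higher in CLEC, at 21.3 against 4.81 CPM. Against macrophages, 10 of 30 measured early genes were higher and 12 lower in CLEC (24.2% and 19.7% of genes), and 10 and 11 in EC (27.5% and 19.3%). Cyr61 and Ctgf, secreted matrix proteins, were at 205.9 and 91.8 CPM in CLEC, with Cyr61 at 0.0249 and Ctgf at 0 CPM in macrophages. Cebpb, a factor of myeloid cells, was at 6.09 in CLEC and 162.6 CPM in macrophages, and the small chaperone Hspb8 at 169.6 and 0.125 CPM.

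In LN GFP+ against GFP- cells, 5 of 29 measured further early genes were higher and 14 lower (20.1% and 19.2% of genes). Klf2 and Klf4, endothelial factors induced by flow, were at 15.3 against 245.4 CPM (-3.92) and 9.41 against 140.5 CPM (-3.76), and the kinase Sgk1 at 52.7 against 676 CPM (-3.66). In LN GFP- cells against tumour EC, 16 of 31 were higher and 7 lower (20.9% and 25.5% of genes), with the chaperone Hsph1 at 127.04 against 4.81 CPM (4.46) and Tnfaip3, a feedback inhibitor of NF-kB, at 161.2 against 16.96 CPM (3.18). In LN GFP+ cells against tumour CLEC, 9 of 28 were higher and 11 lower (23.4% and 23.8% of genes). Ppp1r15a, a stress-induced phosphatase subunit, was at 1032 against 71.002 CPM (3.84), and Ctgf at 0.0105 against 91.8 CPM (-6.52). The chaperone Hspb8 had 0 reads in LN GFP+ cells and was at 169.6 CPM in tumour CLEC. Of the regulators, which include Srf, Creb1 and Hsf1, 8 were measured in each comparison between gates, and at most 2 were called in either direction. Of 21 to 23 measured chaperones, 1 to 5 were called higher and 0 to 6 lower. Over the same comparisons, 6.95% to 27.5% of all measured genes were higher and 8.25% to 30.5% lower. The most chaperones were 5 of 23 higher in LN GFP- cells against tumour EC (20.9% of genes). The most lower were 6 of 22 in LN GFPlow against GFP- cells (30.5% of genes).

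The 7 blood cells, 1 from pool B and 6 from pool D, entered no comparison. Their 35 genes took 0.748% of reads. Btg1 was at 1060.0 CPM, and over the 6 other gates it ranged from 152.4 CPM in tumour EC to 324.2 in LN GFP- cells. Hspa8 was at 2292 CPM and was read in all 7 cells, while Hspb1, Hspa1a, Fosb and Ier3 had 0 reads, which with 7 cells allows shares of up to 42.9% of cells.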

How the data were processed

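Single mouse cells were amplified by a modified SMART-seq2 protocol with 20 cDNA cycles and no molecular identifiers, per the labels' protocols. The authors deposited raw read counts per gene, with mm10 as the genome build, and the submitters' processing notes list Subread 1.4.6-p2, STAR 2.4.1b and FastQC 0.11.4. Among 51826 rows, 92 repeated a symbol and were added to the first. Cells needed 50000 reads, 1000 genes and at most 25% mitochondrial reads. Reads were summed by gate into CPM, and the depth of a cell was its total count. Shares of cells have exact Clopper-Pearson intervals, and a share of 0 has the limit of 3 cells over n. Before log2 ratios were taken, a pseudocount of 1 was added to CPM. No label names an animal, so no test was run. In comparisons between gates, members were described with their values when they were 2-fold apart or more, at 20 CPM or more in the higher gate and in 1 direction on each pair of plates or pools that held 5 or more cells of both gates, up to 10 each way by ratio, with up to 4 related genes by the same rule. Other genes that are named were chosen after their values were seen. The members and lists were chosen with earlier results of these data known. Markers of endothelium, blood endothelium, lymphatic endothelium, macrophages, T and B cells, fibroblasts or pericytes, platelets and erythroid cells were read in every gate. Doublets were not called, since cells were sorted singly. Alternatives were a stricter cell filter (200000 reads, 2500 genes, 10% mitochondrial), a higher gene filter (5 CPM, 20% of cells), a pseudocount of 5, the mean of per-cell CPM, median-of-ratios scaling, thinning to 100000 reads, and leaving out each plate or pool. Leaving out each gene's top cell was chosen after seeing the data. The calculation was tested on simulated data. Python 3.11.15, numpy 2.4.6, pandas 2.3.3 and scipy 1.17.1 were used.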

Additional observations from a re-analysis of the deposited data

Results flagged for a closer look

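For 6 members the ratio of GFP+ over GFP- endothelial cells had one sign on both tumour plates and the opposite sign in all 3 LN pools, by log2 ratio of CPM plus 1. They were 6 of the 30 members at 20 CPM or more in both tissues (20%), beside 13% of 6098 genes by the same rule. The difference between the tissues was not tested, and both tumour plates share 1 plate of GFP- cells. Dusp2 was at -1.07 in tumour and 0.98 in LN, a difference of 2.05, but among LN cells with Prox1 reads it was at 0.17. Hspb1 was at 0.36 and -3.28, a difference of -3.65, and at -0.64 among LN cells with Prox1 reads summed over pools. Its opposite sign holds for summed reads only. By the share of cells with a read, given above, Hspb1 was lower in GFP+ than in GFP- cells in both tissues. Myc was at -0.51 and 1.32, a difference of 1.83. Socs3 was at -0.63 and 0.98, a difference of 1.61 (0.60 among LN cells with Prox1 reads summed over pools). Within pools, those cells had Socs3 at 398.5 CPM in GFP+ and 57.24 in GFP- cells of pool A, and at 1233 and 768.6 CPM in pool B. Hspa1b (-0.24 and 0.43, a difference of 0.67) and Nfkbia (-0.07 and 0.56, a difference of 0.62) were within 2-fold in the sums. Their LN pools ran from 0.67 to 1.401 for Hspa1b, all above its summed ratio, and from 0.13 to 1.15 for Nfkbia.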

How the results depend on the processing

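No paired analysis was possible because no result came from a test, and replicate numbers name single wells. LN gates share pools, and the report gives their ratios within each pool. Of 75 list medians recomputed under the alternatives, 62 moved by no more than the spread over plates or pools, as did 72 of 75 counts within 1.5 times. For tumour CLEC against EC the median of -0.32 was -0.25 by the mean of per-cell CPM, -0.21 by median-of-ratios scaling and -0.19 without each gene's top cell, and leaving out a plate gave -0.41 to -0.33 with 3 to 7 called members. For CLEC against macrophages it was -1.03 to -0.87 without a plate. For EC against macrophages, with 1 plate each and so no spread, it was -0.93 with the stricter cell filter, -0.99 with the higher gene filter and with a pseudocount of 5 CPM, -1.22 by the mean of per-cell CPM and by thinning, -1.16 by median-of-ratios and -1.19 without the top cell. LN GFPlow against GFP- ran from -0.58 to 1.72 without a pool, with 16 to 27 called, and GFPlow against GFP+ from -0.06 to 1.23, with 13 to 21 called and 21 with the stricter filter. Without a pool or plate, LN GFP+ against GFP- stayed at -0.86 to -0.45, LN GFP- against tumour EC at 0.69 to 1.49 and LN GFP+ against tumour CLEC at 0.34 to 1.31. Fully described members were chosen as 2-fold apart in 1 direction on every pair. Leaving out a plate or pool could thus hardly reverse them. Of 759 values of these members, 722 kept their direction and 2-fold, 36 fell under 2-fold and 1 reversed, Nr4a2 in LN GFP+ against GFP-, at 0.93 with the stricter filter. The cause of these changes was not tested. Median-of-ratios scaling moved the median of all genes from -0.12 to -0.02 in CLEC against EC, from 0.21 to 0.07 in EC against macrophages and from -0.14 to -0.03 in LN GFP- against tumour EC. By the mean of per-cell CPM, 4 members were higher and 14 lower in LN GFP+ against GFP-, and 5 higher and 17 lower in GFPlow against GFP-. The called counts of this section stand without the share of all genes under the same setting, so an excess cannot be read from them. That share moves. Without pool B, 47.7% of genes were higher and 29% lower in GFPlow against GFP-, beside 25.3% and 30.5% over both pools. Depth limits members near 0, such as Egr3.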
